A study of Mus musculus with 59 samples.

Results

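The genes described here are 51 genes that mark endothelial cells, the cells that line blood and lymph vessels. A gene was included when the accession of a probe mapped to one of the listed symbols, and all 51 were on the array, out of 37163 genes measured. Their levels come from arrays of lung, liver and forestomach. The animals were Muta™Mouse males about 16 weeks old, of a transgenic strain that carries a reporter for mutation assays. The mice received benzo(b)fluoranthene (BbF), a polycyclic aromatic hydrocarbon, in olive oil by oral gavage for 28 days at 25 (low), 50 (medium) or 100 (high) mg/kg-bw/day, and vehicle mice received olive oil alone. Tissue was taken 72 hours after the last dose. The series' own descriptions do not name the compound in 1 way, with BbF in the titles and the treatment protocol and benz(a)anthracene in the design text and 1 exposure label; BbF is used here. There were 5 mice in a group and 4 in low-dose lung, where mouse 7 has no array here, and each array compared the RNA of 1 tissue of 1 mouse (Cy5) with a universal mouse reference RNA (Cy3). A level below is the log2 ratio of tissue to reference, and a difference is the level at a dose minus the level in vehicle mice of the same tissue. A gene passed the test when its Benjamini-Hochberg adjusted p in limma was 0.05 or less over all probes and its difference reached 1.5-fold. Whole pieces of tissue were used, so fewer endothelial cells and less RNA of a gene per endothelial cell cannot be told apart.

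Endothelial cells are held together by junction proteins such as VE-cadherin (Cdh5), claudin 5 (Cldn5) and PECAM-1 (Pecam1). They depend on receptors for vascular endothelial growth factors (Kdr, Flt1, Flt4) and angiopoietins (Tek), and they set vessel tone through nitric oxide and endothelin. Their blood-facing surface carries proteins that control clotting and the capture of leukocytes. The comparison asks whether the members moved together with dose, as a marker list of a cell type would with the content of that cell, or whether single members moved.

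In lung single members moved in opposite directions. In high-dose mice 7 members rose, led by Cd34 and Emcn, and 3 fell, led by Esm1 and Ednrb. Of all genes 1.25% rose and 0.511% fell. Of the defining markers, Pecam1 (0.74) and Cdh5 (0.82) were among those that rose. The junction gene Cldn5, the angiopoietin receptor Tek, von Willebrand factor (Vwf) and Kdr did not pass the test. The median difference over all 51 members was 0.14, against -0.002 over all genes. The promoters of the 2 members with the largest rises and the 2 with the largest falls are shown because these 4 genes carry the result. Each line holds the 250 bases before the gene's start on the gene's own strand, from RefSeq (GRCm38.p6). Capitals mark GCGTG, the core bound by the aryl hydrocarbon receptor (AhR), which polycyclic aromatic hydrocarbons activate, with its partner ARNT, and AGGAAG, a motif of ETS factors such as Erg and Fli1, each searched on both strands; the 2 motifs did not overlap in these windows.
Cd34, chr1:194938571-194938820, plus strand: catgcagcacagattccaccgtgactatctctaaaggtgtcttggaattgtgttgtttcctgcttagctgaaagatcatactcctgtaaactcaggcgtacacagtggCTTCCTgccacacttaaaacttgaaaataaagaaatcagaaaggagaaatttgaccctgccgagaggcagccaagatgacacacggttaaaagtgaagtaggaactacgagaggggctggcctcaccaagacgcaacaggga
Emcn, chr3:137340828-137341077, plus strand: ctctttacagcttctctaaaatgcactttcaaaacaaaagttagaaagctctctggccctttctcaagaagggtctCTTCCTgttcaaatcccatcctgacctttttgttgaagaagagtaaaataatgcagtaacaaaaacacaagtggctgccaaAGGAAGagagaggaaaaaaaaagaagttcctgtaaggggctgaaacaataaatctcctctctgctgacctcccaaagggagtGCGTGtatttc
Ednrb, chr14:103843702-103843951, minus strand: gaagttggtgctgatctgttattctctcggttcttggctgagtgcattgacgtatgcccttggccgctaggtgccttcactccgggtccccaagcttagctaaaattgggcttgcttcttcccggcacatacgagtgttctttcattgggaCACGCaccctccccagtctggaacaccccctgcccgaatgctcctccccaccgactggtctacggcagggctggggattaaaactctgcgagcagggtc
Esm1, chr13:113209409-113209658, plus strand: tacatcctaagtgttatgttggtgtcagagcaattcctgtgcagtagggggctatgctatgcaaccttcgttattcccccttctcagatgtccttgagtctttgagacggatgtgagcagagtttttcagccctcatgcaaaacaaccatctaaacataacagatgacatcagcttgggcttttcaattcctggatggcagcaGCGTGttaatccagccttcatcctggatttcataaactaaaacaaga

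GCGTG lay 11 bases before the start of Emcn and 47 before that of Esm1, counted from the first printed base of the match. In Ednrb the opposite strand held it, 99 bases before the start. The Cd34 window held no match to GCGTG. The other motif, AGGAAG, was found in the windows of Cd34 (1 match) and Emcn (2 matches) and not in those of Ednrb and Esm1. Of 32851 promoter windows of this length in the table, 28.2% held GCGTG and 29.5% held AGGAAG. Of the 31 members with a window in the table that was examined, 11 held GCGTG and 14 held AGGAAG. A member was counted when any of its windows held the motif, whereas the percentages are over single windows. The member counts and the percentages are therefore not in the same unit. A match is only a description of the letters.

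The labels of the tissues were checked by their defining genes. Sftpc, a surfactant gene of the lung, was at 6.84 or more throughout lung and at 0.69 or less in the other tissues. The club cell gene Scgb1a1 was at 7.84 or more in lung but also at 4.30 to 5.46 in forestomach. Albumin (Alb) was at 5.96 or more on the 19 liver arrays with a value, at 0.78 or less in lung and at 0.17 to 4.79 in forestomach, and Apoa2 was at 3.84 or more, 1.01 or less and -0.22 to 3.18. The lung array of low-dose mouse 6 also carried the squamous keratins of the forestomach, with Krt13 at 4.17 and Krt4 at 5.73, and without it the number of members that passed at the low dose in lung stayed at 0. Defining endothelial markers were well above background throughout lung: 49 of the 51 members were so on all 19 lung arrays, and Sele, an adhesion molecule of activated endothelium, was so on none. In forestomach 38 to 47 members were well above background on an array. In liver the count was 33 to 43 on the first and second slides but 4 to 8 on the 8 arrays of the third slide, where at most 12.9% of all probes were well above background, against 37.1% to 46.2% on the other liver arrays.

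In vehicle mice the members were highest in lung. The mean level of 47 of the 51 was highest in lung, that of Kdr, Klf4 and Procr in forestomach, and that of Sele in liver, although no array of the 3 tissues had Sele well above background. In lung the level exceeded that in liver for 45 members and was lower for none, where 17.1% of all genes were higher and 11.3% lower in lung. Against forestomach, 42 members were higher in lung and 2 were lower, where 11.7% and 10.5% of all genes were. The median difference over the members was 3.24 against liver and 2.79 against forestomach.

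Cdh5, which forms the adherens junctions between endothelial cells, had a mean level of 6.87 ± 0.27 (SD, n = 5) in lung, 1.75 ± 0.83 in liver and 2.00 ± 0.11 in forestomach. Cldn5, the claudin of endothelial tight junctions, was at 6.71 ± 0.20 in lung, 2.27 ± 1.21 in liver and 2.74 ± 0.57 in forestomach. Tek, the angiopoietin receptor, was at 4.72 ± 0.34, 0.46 ± 0.31 and 0.52 ± 0.09 in the same order. For these genes lung stood above both other tissues, which lay within their spread of each other. The liver means and SDs include mouse 5, whose array was on the third slide, with Cdh5 at 0.27, Cldn5 at 0.13 and Tek at -0.05. In liver, vehicle mice 1 to 4 had these genes at 2.04 to 2.18, 2.61 to 3.04 and 0.41 to 0.74. Several members were not well above background on any vehicle array of a tissue, so that only a bound can be given. Tmem100, an arterial gene, was at least 42.0-fold higher in lung than in liver, and Gja5, the arterial connexin 40, at least 18.4-fold. Calcrl, the receptor for adrenomedullin and calcitonin gene-related peptide, was at least 5.55-fold higher in lung than in forestomach, and Dll4, a Notch ligand, at least 4.31-fold.

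Liver and forestomach differed from each other in fewer members. Only 2 passed as higher in liver (9.53% of all genes). These were S1pr1, a receptor for sphingosine 1-phosphate, by 2.52 ± 0.56 (log2 difference ± SE), and Eng, a co-receptor for TGF-β, by 1.55 ± 0.25. Another 12 were lower in liver (14.2% of all genes), led by Klf4 (-5.76 ± 0.38), a factor that squamous epithelium also expresses. Mmrn1, multimerin 1, was also lower in liver, where it was not well above background on any vehicle array, and it was at least 6.69-fold higher in forestomach. These counts depend on the third liver slide, which held the array of vehicle mouse 5 and entered the spread of the fit. Ptprb did not pass (1.31 ± 0.95, adjusted p = 0.334). In liver it was at 6.47 to 6.98 in vehicle mice 1 to 4 and at 2.1 in mouse 5, against 4.18 to 4.76 in vehicle forestomach. Leaving out any 1 vehicle mouse from all tissues gave 13 to 15 members that differed.

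For Kdr, the main receptor for VEGF, the tissue order depended on the probe. The probe that was brightest over all arrays gave 0.85 ± 0.18 in lung, 0.91 ± 0.18 in liver and 1.26 ± 0.21 in forestomach. The second probe gave 6.71 ± 0.29, 3.70 ± 1.74 and 2.70 ± 0.38, highest in lung like most members. The liver values again include mouse 5 on the third slide. Neither probe of Kdr passed the test at the high dose in lung, with a difference of -0.20 ± 0.13 for the first (adjusted p = 0.445) and 0.38 ± 0.24 for the second (adjusted p = 0.433).

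**Figure D1:**
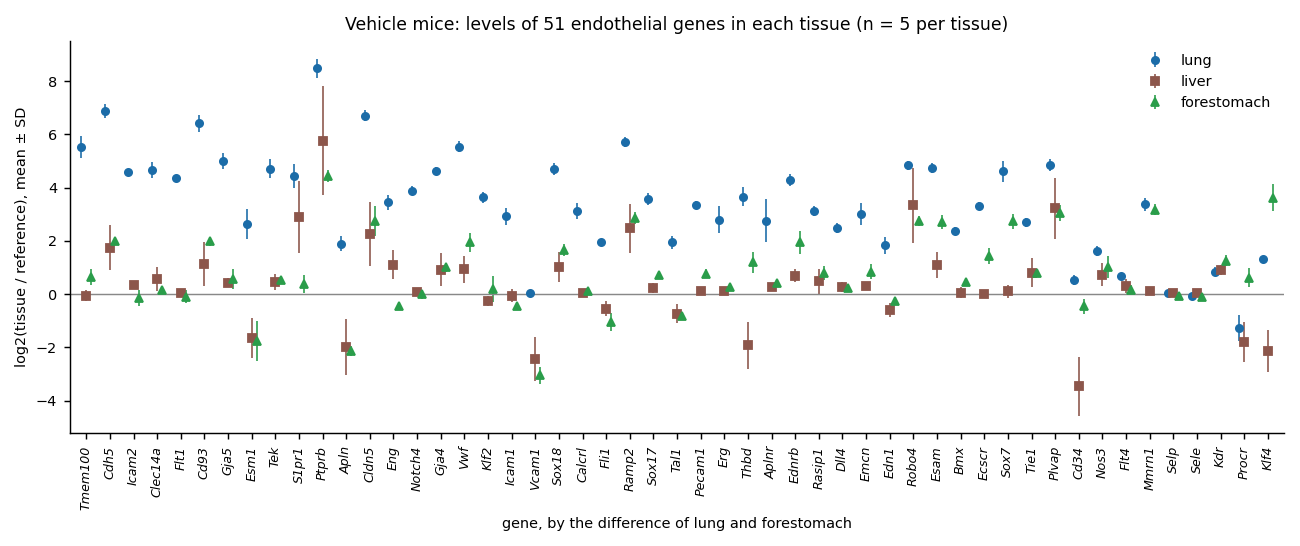
Mean level (log2 ratio of tissue to reference) ± SD of the 51 genes in lung, liver and forestomach of vehicle mice, n = 5 per tissue, with genes ordered by the difference of lung and forestomach. Levels compare tissues within a gene and not genes with each other; the lung mean is the highest of the 3 for 47 genes.

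In lung the number of members that passed grew with dose, from 0 of 51 at the low dose to 3 and then 10. Of all genes 0.433%, 0.584% and 1.77% passed in the same order, with 1.25% up and 0.511% down in the last. At the low dose 8 members had an unadjusted p under 0.05, where 10.0% of all genes did. Clec14a, Flt4, Ramp2, Klf2 and Notch4 met the threshold on adjusted p alone at the high dose, with differences under 1.5-fold. The share of all genes that did so is not given here, so their number is not read as a result.

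Among the 15 genes of junctions, adhesion and the cell surface, 4 rose at the high dose in lung, none fell and 11 did not pass. Cd34, a sialomucin of the vessel surface that is also found on blood progenitors, was at 0.41, 0.64, 0.39, 0.82 and 0.41 in vehicle mice 1 to 5. At the low dose it was at 1.04, 1.15, 1.44 and 0.89, and at the medium dose at 1.5, 1.82, 1.06, 1.53 and 1.93. The high-dose mice reached 3.1, 3.16, 2.55, 2.86 and 3.24. All dosed mice lay above all vehicle mice, and the high-dose mice lay above all others. The difference was 0.59 ± 0.16 (SE) at the low dose, which did not pass (adjusted p = 0.122), 1.03 ± 0.15 at the medium dose (adjusted p = 0.00112) and 2.45 ± 0.15 at the high dose (5.46-fold, adjusted p = 8.74e-09). The second probe of Cd34 gave 1.47 ± 0.13 at the high dose (adjusted p = 5.28e-07).

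Emcn, endomucin, a sialomucin of capillary and venous endothelium, was at 3.25, 2.77, 2.62, 2.80 and 3.65 in vehicle mice and at 4.61, 4.81, 4.13, 5.22 and 5.39 at the high dose. The groups did not overlap, and the difference was 1.81 ± 0.28 (3.52-fold, adjusted p = 0.000456). Cdh5 was at 6.87, 6.94, 6.41, 7.03 and 7.10 in vehicle mice and at 7.49, 7.48, 7.27, 8.07 and 8.16 at the high dose. Its groups did not overlap either, with a difference of 0.82 ± 0.20 (1.77-fold, adjusted p = 0.0131). Pecam1 was at 3.38, 3.33, 3.52, 3.13 and 3.40 in vehicle mice and at 4.10, 4.26, 4.00, 3.94 and 4.16 at the high dose. The groups again did not overlap, with a difference of 0.74 ± 0.14 (1.67-fold, adjusted p = 0.0025).

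The other surface genes stayed within smaller differences. Cldn5 differed by 0.23 ± 0.16 (adjusted p = 0.503). Clec14a, a C-type lectin of endothelium, had the largest negative difference of the group, -0.54 ± 0.13 (adjusted p = 0.0176), with all 5 high-dose mice below all vehicle mice but under 1.5-fold. Its second probe, well above background on all 19 lung arrays, differed by -0.05 ± 0.20 (adjusted p = 0.933). Plvap, which forms the diaphragms of fenestrae, differed by -0.46 ± 0.15 for its brighter probe (adjusted p = 0.0842), whereas its second probe passed at -0.76 ± 0.21 (adjusted p = 0.0356).

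**Figure D2:**
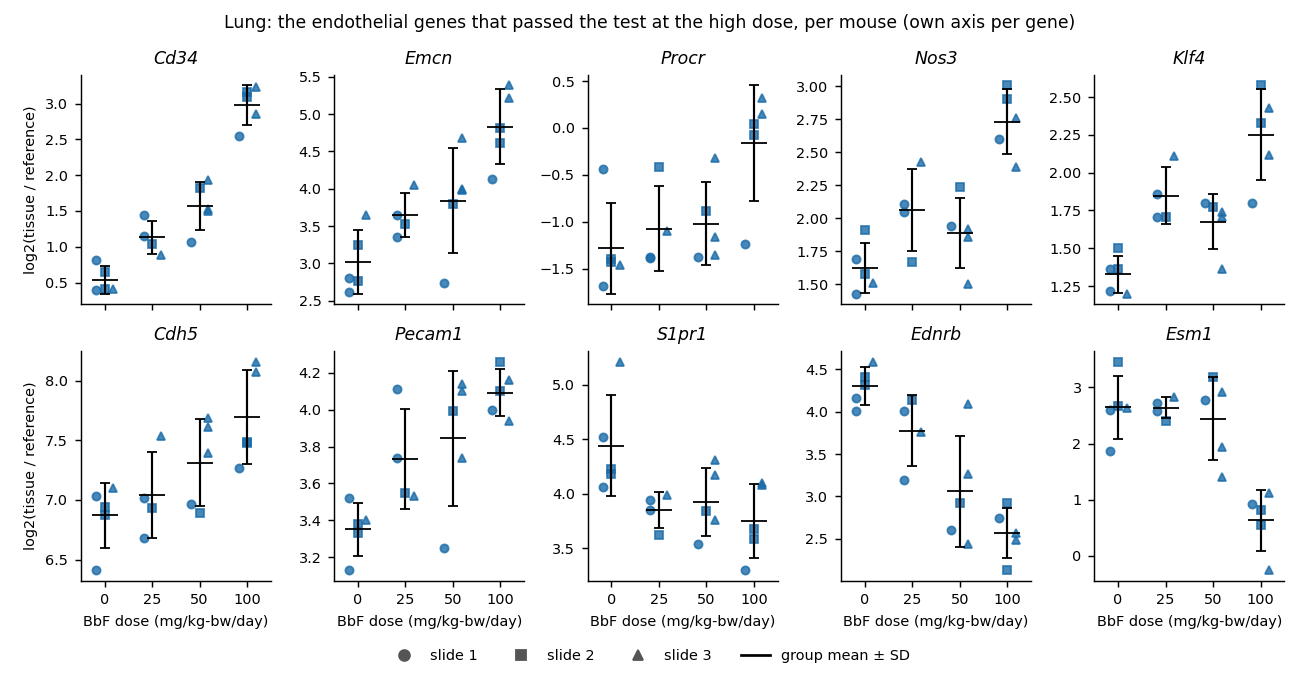
Level (log2 ratio of tissue to reference) of the 10 genes that passed the test at the high dose in lung, against BbF dose in mg/kg-bw/day; each point is 1 mouse, the symbol gives the slide, and bars are group means ± SD. Cd34 is higher in all dosed mice than in all vehicle mice, Esm1 falls below all other groups at the high dose, and S1pr1 and Procr overlap with vehicle.

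None of the 7 receptors for VEGF and angiopoietins and their phosphatase and kinase passed at the high dose. Flt4, the receptor for VEGF-C, had the largest positive difference, 0.51 ± 0.13 (adjusted p = 0.0166), with the 2 groups not overlapping. Flt1, a VEGF receptor that also acts as a decoy, had the largest negative one, -0.31 ± 0.15 (adjusted p = 0.258). Tek differed by -0.30 ± 0.19 (adjusted p = 0.466), and its 95% interval ran from -0.70 to 0.11.

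Among the 7 vasoactive genes, 2 fell and none rose. Ednrb, the type B endothelin receptor, was at 4.32, 4.41, 4.16, 4.01 and 4.59 in vehicle mice. It was at 4.14, 3.19, 4.01 and 3.76 at the low dose and at 4.09, 2.92, 2.60, 3.26 and 2.44 at the medium dose. At the high dose it was at 2.92, 2.13, 2.75, 2.57 and 2.49, below all vehicle mice. The difference was -0.53 ± 0.25 at the low dose (adjusted p = 0.552), -1.24 ± 0.24 at the medium dose (adjusted p = 0.00971) and -1.72 ± 0.24 at the high dose (3.30-fold lower, adjusted p = 0.000156). The second probe gave -1.49 ± 0.33 at the high dose (adjusted p = 0.00825).

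S1pr1, which supports the endothelial barrier, was at 4.18, 4.23, 4.52, 4.06 and 5.21 in vehicle mice and at 3.59, 3.68, 3.30, 4.08 and 4.10 at the high dose. The groups overlapped, with 3 of 5 high-dose mice below all vehicle mice, and the difference was -0.69 ± 0.19 (1.61-fold lower, adjusted p = 0.0355). The call was lost with another scaling of the arrays, in which each array's log ratios were centred on their median (-0.23, adjusted p = 0.485), and on leaving out any 1 of mice 3, 5, 16, 17 and 18. The largest positive difference in this group was that of Calcrl, 0.44 ± 0.21 (adjusted p = 0.263). Its partner Ramp2 differed by -0.42 ± 0.12 (adjusted p = 0.036), under 1.5-fold and with all high-dose mice below all vehicle mice. The ligand Edn1 (endothelin 1) differed by 0.42 ± 0.21 and did not pass (adjusted p = 0.293).

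Of the 8 transcription factors, 1 rose and none fell. Klf4, a Krüppel-like factor of quiescent endothelium and of epithelia, was at 1.5, 1.36, 1.36, 1.22 and 1.2 in vehicle mice and at 2.58, 2.33, 1.80, 2.12 and 2.43 at the high dose. The groups did not overlap, and the difference was 0.92 ± 0.12 (1.90-fold, adjusted p = 0.000109). Klf2, its flow-responsive relative, differed by 0.45 ± 0.13 (adjusted p = 0.0477), under 1.5-fold. Sox17 differed by 0.69 ± 0.25 for its brighter probe (adjusted p = 0.116), and its second probe passed at 0.78 ± 0.21 (adjusted p = 0.0283). Sox7 had the largest negative difference, -0.10 ± 0.20, and Erg and Fli1, ETS factors that keep endothelial identity, differed by 0.17 ± 0.31 and 0.00 ± 0.08.

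No member of the 5 arterial and Notch genes passed at the high dose. Notch4, the endothelial Notch receptor, passed at the medium dose, where its levels were 4.67, 4.59, 4.12, 4.29 and 4.67 against 3.78, 4.05, 4.04, 3.67 and 3.87 in vehicle mice (0.59 ± 0.12, adjusted p = 0.0142). The call was lost with slide or scan day as a block, with the authors' processed values, without the third lung slide and on leaving out any 1 of mice 1, 4, 5, 11, 12 and 15. At the high dose its difference was 0.54 ± 0.12 (adjusted p = 0.0089), under 1.5-fold. Its ligand Dll4 differed by -0.01 ± 0.27 at the high dose, and Gja5 by -0.20 ± 0.19.

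Among the 4 genes of nitric oxide and coagulation, 2 rose and none fell. Nos3, the endothelial nitric oxide synthase, was at 1.58, 1.91, 1.43, 1.69 and 1.51 in vehicle mice and at 2.90, 3.01, 2.60, 2.39 and 2.76 at the high dose. The high-dose mice were all above the vehicle mice, by 1.11 ± 0.14 on average (2.16-fold, adjusted p = 7.81e-05), and the second probe gave 1.25 ± 0.13 (adjusted p = 4.08e-06). Procr, the endothelial protein C receptor, was at -1.40, -1.43, -1.68, -0.44 and -1.46 in vehicle mice and at -0.08, 0.04, -1.24, 0.15 and 0.32 at the high dose. It differed by 1.12 ± 0.28 (2.17-fold, adjusted p = 0.0178), but high-dose mouse 18 lay within the vehicle range, and without the third lung slide the call was lost (0.81, adjusted p = 0.263). Leaving out any 1 of mice 3, 17, 19 and 20 also ended it. Thbd, thrombomodulin, the partner of that receptor, differed by 0.76 ± 0.25 (adjusted p = 0.0766), and Vwf by -0.21 ± 0.12 (adjusted p = 0.367).

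None of the 4 leukocyte adhesion genes passed: Icam1 had the largest positive difference (0.12 ± 0.14) and Selp, P-selectin, the largest negative one (-0.15 ± 0.14). Only 2 of the 4 were well above background on all lung arrays, and Sele was so on none. Vcam1, the ligand of leukocyte integrins on activated endothelium, differed by 0.02 ± 0.13. Esm1, endocan, a proteoglycan of the tip cells that lead growing vessels, was at 3.46, 2.67, 2.59, 1.87 and 2.63 in vehicle mice. It was at 2.40, 2.58, 2.73 and 2.83 at the low dose and at 2.91, 3.19, 2.77, 1.41 and 1.93 at the medium dose. At the high dose it was at 0.82, 0.54, 0.93, 1.12 and -0.26, below every mouse of the other groups. The difference was -2.01 ± 0.31 (4.03-fold lower, adjusted p = 0.000398) at the high dose.

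**Figure D3:**
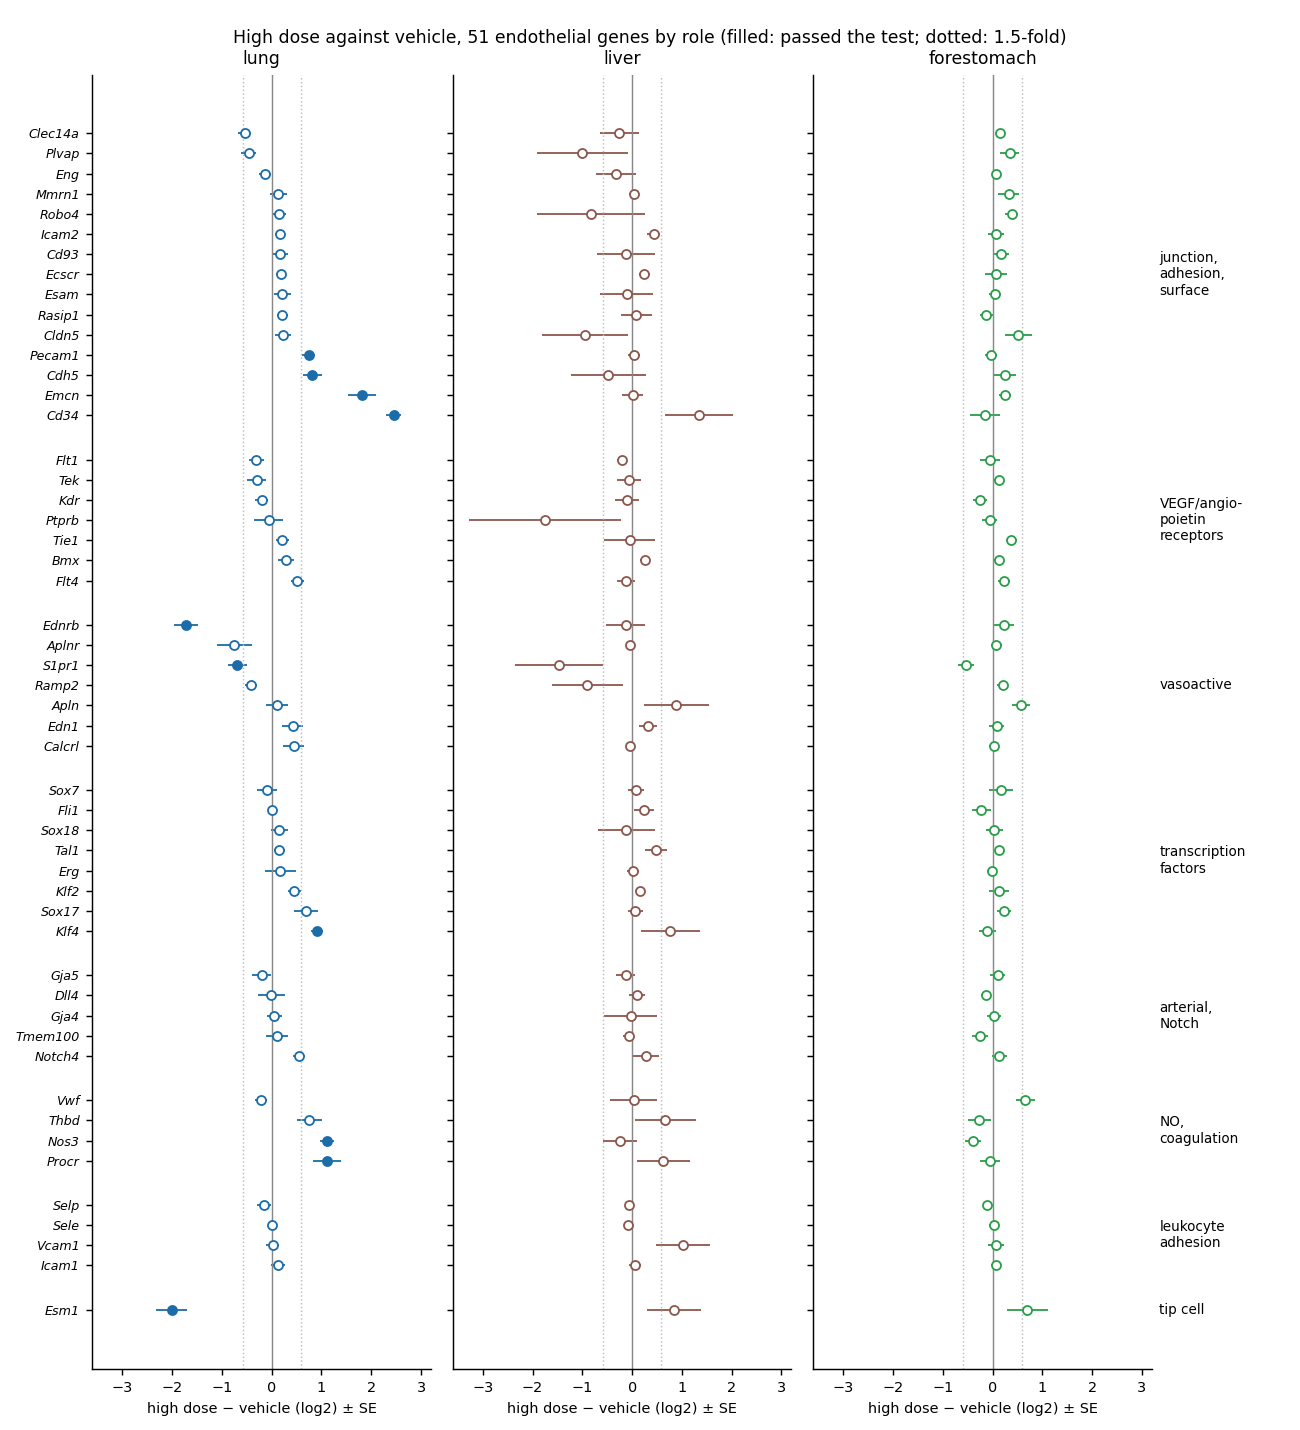
High dose minus vehicle (log2) ± SE for each of the 51 genes, grouped by role, in lung, liver and forestomach; filled points passed the test, open points did not, and dotted lines mark 1.5-fold. In lung 7 filled points lie to the right of 0 and 3 to the left, and no point is filled in liver or forestomach.

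A trend over the dose was tested in each tissue as well. In lung 10 members had a trend past the threshold, 8 up and 2 down, where 1.49% of all genes did (1.07% up and 0.428% down). These were the members that passed at the high dose without S1pr1, together with Thbd, whose fitted change from vehicle to the high dose was 0.81 ± 0.24 (adjusted p = 0.0452). No member had such a trend in liver (0.0135% of all genes) or in forestomach (0.0861%). At an unadjusted p under 0.05 the counts were 7 (9.04% of all genes) and 8 (8.91%). The liver fit included the third slide, and without that slide 7 members had a trend past the threshold. The share of all genes in that fit is not given here, so this number is not read as a result.

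The list was also followed as a whole, by the median over the 51 members of each mouse's level minus the vehicle mean. In lung the median difference was 0.08, 0.18 and 0.14 with rising dose, and 39, 43 and 33 of the 51 differences were positive. These values moved with the slide. All 7 arrays of the third lung slide lay between 0.18 and 0.48, including that of vehicle mouse 5 (0.21), whereas the other 12 lay between -0.17 and 0.16, and the medium group had 3 of its 5 arrays on that slide. Within the 3 slides the median difference at the high dose was -0.04, 0.09 and 0.05, with 23, 31 and 27 members positive. At the medium dose it was -0.07, 0.12 and 0.10. With slide as a block the median difference at the high dose was 0.05.

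Of the 10 genes that passed at the high dose, 9 had the same sign within every slide. Each slide held only 1 or 2 vehicle arrays and 1 or 2 high-dose arrays. The 10 genes were called on these same arrays, so this describes the slides and is no separate test of the calls. Cd34 differed by 1.95, 2.60 and 2.64 at the high dose within slides 1, 2 and 3, Emcn by 1.42, 1.70 and 1.66 and Nos3 by 1.04, 1.21 and 1.07. Ednrb differed by -1.33, -1.84 and -2.06 and Esm1 by -1.30, -2.39 and -2.19. Klf4 differed by 0.51, 1.03 and 1.07. Procr was the exception, with -0.18, 1.39 and 1.69. Without the third slide 10 members passed at the high dose (1.46% of all genes), among them 9 of the 10 above and Thbd in place of Procr, but none passed at the medium dose (0.0807% of all genes), where 2 arrays were then left. The size of the median difference of the list as a whole also depended on the scaling, and its sign in lung did not. At the high dose in lung it was 0.14 with the scaling used here and 0.48 with median centring. The members with a positive difference were 33 and 45. Median centring gave 18 calls there, 16 up and 2 down, where 8.04% of all genes were called up and 0.0834% down. It also gave a median over all genes of 0.085.

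**Figure D4:**
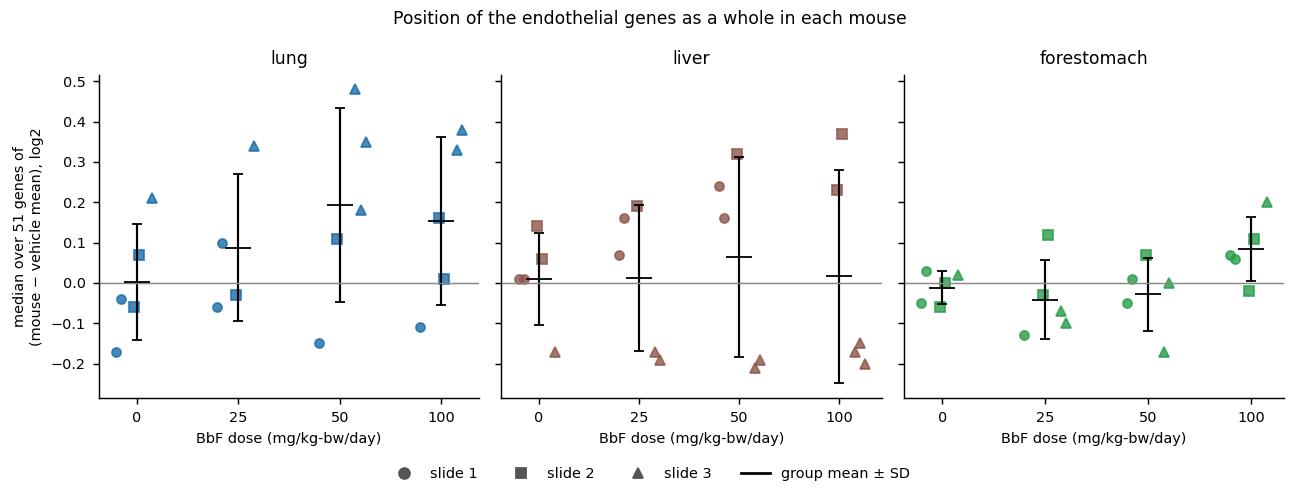
Median over the 51 genes of a mouse's level minus the vehicle mean (log2), against BbF dose in mg/kg-bw/day, for each mouse in lung, liver and forestomach; the symbol gives the slide and bars are group means ± SD. The lung arrays of the third slide (triangles) lie at 0.18 or above in every dose group, and the liver arrays of the third slide at -0.15 or below.

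The groups of a member could also lie apart without overlap. At the high dose in lung 8 members had all 5 mice above all vehicle mice and 4 had all below, or 23.5% of the members, where 7.27% of all genes had no overlap. At the low dose these were 6 members (11.8%, against 4.08% of all genes), with Pecam1, Cd34, Fli1, Klf4 and Dll4 above and S1pr1 below. At the medium dose they were Cd34 and Notch4 (3.92%, against 3.89%).

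In liver no member passed at any dose, where 0%, 0% and 0.00538% of all genes did with rising dose. The median difference was 0.02, 0.10 and -0.03. Unadjusted p-values under 0.05 were found for 0, 2 and 5 members (3.30%, 4.55% and 8.09% of all genes), of which Icam2, an adhesion molecule of resting endothelium, had the smallest p at the high dose (0.43 ± 0.13, adjusted p = 0.474). All 8 arrays of the third slide lay between -0.21 and -0.15, whatever the dose, and the high group had 3 of its 5 arrays there. Without that slide 4 members rose at the medium dose (0.490% of all genes passed) and 5 at the high dose (0.969%), where 2 high-dose and 4 vehicle arrays were left. Notch4 rose by 0.82 ± 0.10 (adjusted p = 0.000855), Tie1, an angiopoietin co-receptor, by 0.78 ± 0.11 (adjusted p = 0.00277) and Cdh5 by 0.83 ± 0.12 (adjusted p = 0.00352). Sox18, a factor of vascular and lymphatic development, rose by 0.89 ± 0.15 (adjusted p = 0.0115) and Cd93, a surface lectin, by 0.71 ± 0.15 (adjusted p = 0.0375). The median difference of the members was then 0.26 at the high dose, with 41 of 51 positive, against -0.005 for all genes. With slide as a block in the fit over all liver arrays none of the members passed at the high dose and Cd93, Tie1 and Sox18 did at the medium dose (0.148% of all genes).

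In forestomach no member passed at any dose either, where 0%, 0% and 0.0996% of all genes did. The median differences were -0.05, -0.03 and 0.07, and 4, 2 and 6 members had an unadjusted p under 0.05 (4.67%, 5.83% and 9.00% of all genes). At the high dose Tie1 (0.37 ± 0.11, adjusted p = 0.232) and Apln, the apelin peptide (0.57 ± 0.18, adjusted p = 0.311), had all 5 mice above all vehicle mice, where 2.45% of all genes had groups without overlap. S1pr1 differed by -0.53 ± 0.16 (adjusted p = 0.274), with 4 of 5 mice below all vehicle mice.

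The difference of the high-dose effects of a pair of tissues was tested in 1 fit of all 59 arrays. Its estimate of the spread is shared, so the third liver slide enters the SE of lung against forestomach too. For Cd34 the SE at the high dose was 0.15 in lung and 0.3 in forestomach, and 0.65 for the difference. Klf4 differed by 1.03 ± 0.54 between lung and forestomach and did not pass (adjusted p = 0.747). Between lung and forestomach the effect differed for 6 members (0.525% of all genes), all among those called in lung. The lung difference exceeded the forestomach one by 2.61 ± 0.65 for Cd34 (adjusted p = 0.0436), 1.57 ± 0.32 for Emcn (adjusted p = 0.00719) and 1.5 ± 0.34 for Nos3 (adjusted p = 0.0202), and by 0.78 ± 0.19 for Pecam1 (adjusted p = 0.031). It was lower by -1.94 ± 0.43 for Ednrb (adjusted p = 0.0163) and by -2.71 ± 0.65 for Esm1 (adjusted p = 0.033). On leaving out 1 vehicle or high-dose mouse from all tissues, 1 (without mouse 20) to 5 (without mouse 18) members differed, and of the 6 only Emcn did so each time. With slide as a block 12 did (1.44% of all genes). Cd34 was at -0.46 ± 0.29 in vehicle forestomach and -0.62 ± 0.51 at the high dose, and Ednrb at 1.94 ± 0.42 and 2.16 ± 0.11. Between lung and liver the effect differed for 2 members (0.487% of all genes), Emcn by 1.81 ± 0.32 (adjusted p = 0.00148) and Esm1 by -2.86 ± 0.65 (adjusted p = 0.0222). Emcn was not well above background on any vehicle array of liver, and Esm1 on 2 of 5. The call of Esm1 was lost on leaving out any 1 of mice 1, 2, 3, 18, 19 and 20. Without the third liver slide the members whose effect differed between lung and liver were instead Cd34, Ednrb and Klf4 (0.936% of all genes). No member's effect differed between liver and forestomach (0.0807% of all genes), where 1 had an unadjusted p under 0.05 (9.68% of all genes).

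Other genes of the vessel wall were examined by lists, which were chosen with earlier results of these data known. In lung at the high dose 1.25% of all genes rose and 0.511% fell. Of 18 ligands of these receptors and Notch partners, 3 rose in lung at the high dose, Vegfc (0.65 ± 0.17, adjusted p = 0.0205), the Notch ligand Jag2 (0.89 ± 0.13, adjusted p = 0.0002) and the secreted factor Egfl7 (0.82 ± 0.07, adjusted p = 7.53e-07). Another 2 fell, adrenomedullin (Adm, -0.91 ± 0.21, adjusted p = 0.0116) and the Notch target Hey1 (-0.95 ± 0.22, adjusted p = 0.011). The median of the 18 differences was 0.11. Vegfa, the main ligand of Kdr, differed by -0.40 ± 0.10 (adjusted p = 0.0169), under 1.5-fold.

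Of 7 genes of lung capillary endothelium, 2 fell in lung at the high dose (0.511% of all genes) and none rose (1.25%). Gpihbp1, which carries lipoprotein lipase across capillaries, fell by 3.36 ± 0.34 on the log2 scale (adjusted p = 4.05e-06) and Fibin by 1.32 ± 0.21 (adjusted p = 0.000571). Kit differed by -0.03 ± 0.28, and the list's median was -0.09. Of 5 lymphatic genes only Lyve1 passed, with a rise of 1.43 ± 0.29 (adjusted p = 0.00373), and Prox1, the factor that defines lymphatic identity, differed by -0.10 ± 0.10. Of 6 genes of liver sinusoidal endothelium Stab2 rose in lung (0.61 ± 0.14, adjusted p = 0.01). Mmrn2, an endothelial matrix protein outside the 51 members, rose in lung by 2.75 ± 0.26 (adjusted p = 1.3e-06).

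Markers of 5 other cell types were measured beside the members in lung at the high dose. None of 6 pericyte, 6 smooth muscle, 5 fibroblast, 5 epithelial and 5 platelet genes passed, with median differences of 0.16, -0.18, -0.06, -0.24 and -0.41. All 5 platelet genes had negative differences, and the mean level of that list ranged from 1.41 to 2.04 in vehicle mice and from 0.77 to 1.41 at the high dose. The mean of the 51 members ranged from 3.24 to 3.60 in vehicle mice and from 3.33 to 3.68 at the high dose. The part of other cell types in the differences of single members was not tested. No gene of these lists passed in liver or forestomach at any dose, where at most 0.00538% and 0.0996% of all genes did. The liver fit included the third slide, and values of these lists without it are not given here. The absence of calls is therefore not read as an absence of change.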

How the data were processed

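Total RNA of lung, liver and forestomach from 20 mice was hybridized by the authors to 59 Agilent arrays, in Cy5 against a Cy3 reference, with no dye swap. The deposited scanner files hold median spot intensity, from Feature Extraction 10.7.3.1 per the file headers, without background correction or normalization. A further deposited table gives log2 ratios of the same arrays by the authors and was used as an alternative (r from 0.967 to 0.999 with the values used). Every deposited column was matched to a sample. Mice are numbered as in the labels, and a number is the same animal in each tissue.

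Median intensities were converted to log2(Cy5/Cy3) and loess-normalized within arrays in limma 3.58.1 (R 4.3.3), without background subtraction, as in the methods of the study. Control spots were left out and non-uniform spots set to missing, and spots of a probe were averaged (55681 probes). Of these, 26413 were named by accession through a RefSeq table (GRCm38.p6), and the others kept the array's name. The brightest probe over all arrays stood for a gene; 39 members had 1 probe and 12 had 2. Promoters were matched to members by symbol, and 31 members had a window in the table that was used.

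Doses were compared with vehicle within a tissue in 1 fit of 4 groups, tissues in 1 fit of 12 groups. The methods name another test (MAANOVA), which was replaced by limma's moderated test. A bound takes the dim group at the higher of its own signal and the lowest signal well above background on the array. Procedures were tested on simulated data. The mouse number pairs tissues of 1 animal; deviations of the same mouse correlated between tissues with median r from -0.03 to 0.04. Slides (3 per tissue) and scan days were tried as blocks. Members and lists were chosen with earlier results of these data known, and members named with values are those that passed in any dose comparison or trend, the defining markers, and the largest rise and fall per role in lung. Others are named for a second probe, groups without overlap or a pathway role, after their values were seen. The number of arrays limits the precision. A list of leukocyte marker genes is not reported here.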

Additional observations from a re-analysis of the deposited data

Results flagged for a closer look

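In lung 5 values stood far from the others of their group, out of 108 groups examined, where chance flags about 1 group in 20. The gap to the nearest mouse, as a share of the group's whole range, was 0.772 for Procr in vehicle mouse 4 (-0.44, against -1.68 to -1.40 in the others) and 0.747 for Procr in high-dose mouse 18 (-1.24, against -0.08 to 0.32). It was 0.799 for Vwf in vehicle mouse 5 (5.89, against 5.40 to 5.50). At the medium dose it was 0.794 for Klf4 in mouse 14 (1.36, against 1.71 to 1.80) and 0.74 for Tek in mouse 13 (4.27, against 5.00 to 5.26).

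By the test of the difference between tissues, the high-dose effect in lung exceeded that in forestomach for Pecam1 (0.78), Emcn (1.57), Cd34 (2.61) and Nos3 (1.5) and was lower for Ednrb (-1.94) and Esm1 (-2.71). Against liver it was higher for Emcn (1.81) and lower for Esm1 (-2.86).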

How the results depend on the processing

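No result reversed its direction with a call. In lung, median centring gave median differences of 0.27, 0.40 and 0.48 at the low, medium and high dose, 18 members called at the high dose and 16 with a trend, and Cldn5, Notch4 and Thbd then passed. It gave -0.11, -0.06 and -0.23 in liver and 0.02 (low) and 0.17 (high) in forestomach, and 6 members whose effect differed between lung and liver and 3 between lung and forestomach. It moved the median of all genes by up to 0.122 (lower in high-dose liver). Slide as a block gave 1 call at the low dose in lung (S1pr1), 3 at the medium dose and 1 trend in liver, medians of 0.13 (liver, high) and 0.03 (forestomach, medium), and 7 and 12 members whose effect in lung differed from liver and from forestomach. Scan day as a block gave 1 call in low-dose lung, 1 in medium-dose and 3 in high-dose liver, and a median of 0.17 in the last. Without the third lung slide, which was added after the data were seen, the medium dose had 0 calls and a median of 0.03. Taking the brightest probe within the tissue, also added after the data were seen, changed no number of calls. Without the third liver slide there were 4 calls and a median of 0.22 at the medium dose, 5 calls and 0.26 at the high dose, and 7 trends. A filter on dim probes left 7 members in liver, with medians of -0.34, -0.27 and -0.83, and gave 5 members whose effect differed between lung and liver. The mouse as a replicate block gave 3 members whose effect differed between lung and liver (Nos3 besides Emcn and Esm1), 6 between lung and forestomach and 0 between liver and forestomach, and it changed no other count by more than 1.5 times. Leaving out 1 mouse gave 2 to 6 calls at the medium dose in lung (6 without mouse 13), medians from -0.06 to 0.09 in high-dose liver, from -0.05 to 0.02 in medium-dose and from 0.05 to 0.12 in high-dose forestomach, and 1 to 3 members whose effect differed between lung and liver (1 without mouse 1, 2, 3, 19 or 20). Between lung and forestomach it gave 1 to 5, with 1 without mouse 20 and 2 or 3 without mouse 1, 2, 3, 5, 16 or 17, and Emcn was called each time. The share of all genes called under a setting is given above for some of these counts only. The other counts describe the settings and are not read as results about the members. The causes were not tested.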
